A study of Homo sapiens with 6 samples.

Results

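The 10 transcription factors PPARG, RXRA, GATA3, FOXA1, KLF5, ELF3, GRHL2, GRHL3, TP63 and OVOL1, which direct differentiation of the epithelium lining the bladder (urothelium), were followed in T24 cells. They were chosen by symbol, and all 10 had a row among the 23152 genes of the count and RPKM tables. T24 is an established human bladder cancer (BLCA) cell line. Cells labelled vector (n = 3) were compared with cells labelled oeRNF112 (n = 3), which overexpressed RNF112, an E3 ubiquitin ligase. The labels name no construct, no time point and no other agent, and their treatment text speaks of siRNA transfection. Whether the sequenced cells were transfected for a short time or were a stable line is not given in the sources used here. Nothing said whether the 3 samples of a group came from separate cultures, so p-values measure only the spread between these samples, which may be technical. All samples come from a single cell line.

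Terminal differentiation of the urothelium is driven by the nuclear receptor PPARG, which binds DNA as a partner of RXRA and acts together with GATA3 and the pioneer factor FOXA1. KLF5 and ELF3 belong to the zinc-finger and ETS families and act in the same epithelial programme, GRHL2, GRHL3 and OVOL1 maintain epithelial junctions and barrier genes, and TP63 marks the basal layer. Luminal bladder cancers carry high PPARG, GATA3 and FOXA1, basal and squamous ones carry TP63, and mesenchymal-like ones have lost much of both programmes.

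Between 40029547 and 41259569 reads were counted per sample. RNF112 itself, the gene that was introduced, checked the labels. It had 27, 19 and 24 counts in vector and 29753, 36963 and 31712 in oeRNF112, and the groups did not overlap. Its log2 fold change of oeRNF112 over vector was 10.37 with a standard error (SE) of 0.18 (adjusted p = 7.4e-10, edgeR quasi-likelihood test, Benjamini-Hochberg over all 14467 genes tested).

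Of the 10 regulators, 6 were expressed in T24 cells and 4 were near silent. Expressed here means a mean of at least 1 RPKM (counted reads divided by gene length and by the library total, a level that can be compared between genes) in one group, and near silent a mean below 0.1 in both. In vector cells the order of the RPKM levels was RXRA at 20.2 ± 1.23 (SD, n = 3, as for the RPKM means that follow), KLF5 at 11.6 ± 0.654, FOXA1 at 8.58 ± 0.781, PPARG at 7.51 ± 0.448, ELF3 at 2.64 ± 0.1 and GATA3 at 1.02 ± 0.203. The sample values of neighbours in this order did not overlap, although the lowest vector sample of FOXA1 was just above the highest of PPARG, at 7.94 RPKM. In oeRNF112 cells the order became RXRA at 16.9 ± 1.09, KLF5 at 15.8 ± 1.84, PPARG at 8.65 ± 0.025, FOXA1 at 4.34 ± 0.916, ELF3 at 2.89 ± 0.299 and GATA3 at 1.21 ± 0.0578. RXRA and KLF5 then overlapped in RPKM, and FOXA1 stood below PPARG in every oeRNF112 sample. The RPKM of RXRA in vector was higher than that of 87.1% of all genes in the table and that of GATA3 higher than that of 52.7%.

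**Figure D1:**
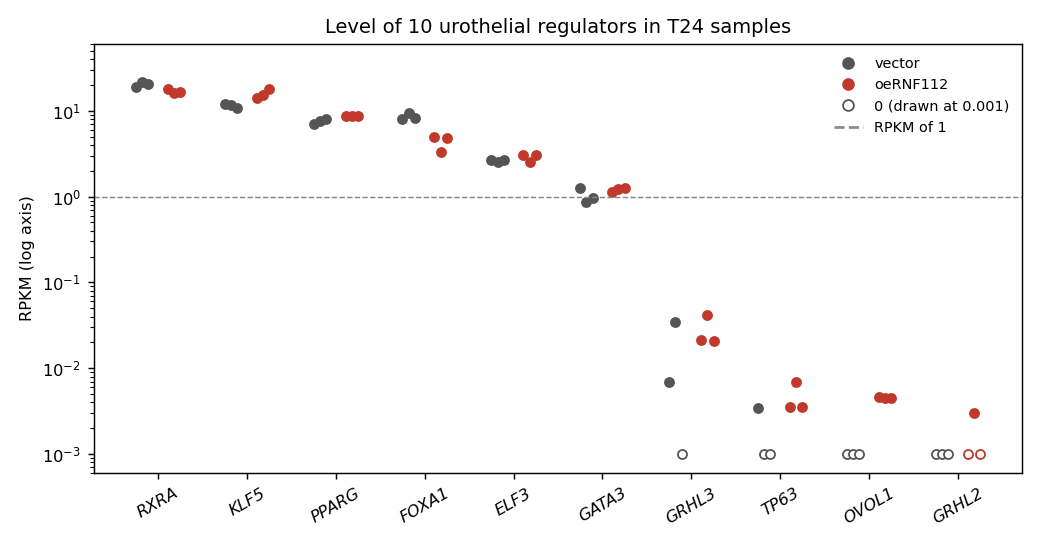
Level of the 10 regulators in each sample, in RPKM on a log axis, with grey points for vector, red points for oeRNF112 and open points drawn at 0.001 for a value of 0. RXRA, KLF5, PPARG, FOXA1 and ELF3 lay above 1 RPKM in all 6 samples, GATA3 lay around that line, and GRHL3, TP63, OVOL1 and GRHL2 lay at or below 0.0418.

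The 4 near silent regulators had at most 6 counts in any sample. GRHL3, a Grainyhead factor of the urothelial barrier, had 1, 5 and 0 counts in vector and 3, 6 and 3 in oeRNF112. TP63, which marks basal cells, had 1, 0 and 0 counts in vector and 1, 2 and 1 in oeRNF112. OVOL1, a repressor of mesenchymal genes, had 0 counts in each vector sample and 1 in each oeRNF112 sample. GRHL2, which sustains cadherin and claudin genes, had 1 count in a single oeRNF112 sample and 0 in the other 5 samples. None of the 4 passed the filter on low counts, and no fold change is given. Tested without that filter, none of the 4 was called. A count of 0 at this depth allows up to 3 counts, or 0.0727 to 0.0749 CPM (the count scaled to a common library total), and this bound covers counting error only.

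Among the 6 regulators that were tested, FOXA1 and RXRA were lower and KLF5 was higher in oeRNF112 cells at an adjusted p under 0.05, and PPARG, GATA3 and ELF3 did not pass. Over all genes tested, 2620 passed, which is 18.1% of them, with 9.97% higher (1442 genes) and 8.14% lower (1178 genes). Scaled by library totals, which TMM factors correct for a few very abundant genes, the split was 2020 higher and 659 lower. The groups did not overlap in normalized CPM for the 3 that passed, a pattern that 36.8% of all genes tested showed. With only 6 tested regulators, 3 calls are a small count beside this background. The median log2 fold change of the 6 was 0.07, beside 0.0027 over all genes tested, but it was 0.0022 without the second vector sample and 0.11 without the second oeRNF112 sample. FOXA1 stood apart from the others in size, and it was called under each of the 15 alternative fits that were tried, whereas the calls of KLF5 and RXRA were not kept under many of them.

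The promoter sequences of the 3 regulators that changed are given here because promoters are among the places where factors of this kind bind. Each is the 250 bases before a start site in RefSeq on GRCh38.p14, written 5′ to 3′ on the strand of the gene. Capitals mark the forkhead letters TGTTTAC or TGTTTGC, the kind of site FOXA1 binds, and the GC box GGGCGG, the kind of site that KLF and SP factors bind, each searched on both strands. KLF5 and RXRA have 2 listed starts each, of which the one with more CpG is shown, and the counts per gene do not tell which start was used. The GC box letters hold a CpG themselves, so this choice favours windows with a GC box.
FOXA1, chr14:37595250-37595499, minus strand: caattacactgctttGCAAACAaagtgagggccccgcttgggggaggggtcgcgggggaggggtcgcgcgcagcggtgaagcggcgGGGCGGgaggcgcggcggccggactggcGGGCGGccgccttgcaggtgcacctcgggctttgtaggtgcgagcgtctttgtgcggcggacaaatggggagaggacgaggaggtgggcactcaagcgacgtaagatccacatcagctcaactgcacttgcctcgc
KLF5, chr13:73058755-73059004, plus strand: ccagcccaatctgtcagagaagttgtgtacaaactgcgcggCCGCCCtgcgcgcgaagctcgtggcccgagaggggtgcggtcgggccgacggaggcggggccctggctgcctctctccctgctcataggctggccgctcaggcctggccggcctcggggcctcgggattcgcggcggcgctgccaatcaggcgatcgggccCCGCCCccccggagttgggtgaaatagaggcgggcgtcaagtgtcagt
RXRA, chr9:134326205-134326454, plus strand: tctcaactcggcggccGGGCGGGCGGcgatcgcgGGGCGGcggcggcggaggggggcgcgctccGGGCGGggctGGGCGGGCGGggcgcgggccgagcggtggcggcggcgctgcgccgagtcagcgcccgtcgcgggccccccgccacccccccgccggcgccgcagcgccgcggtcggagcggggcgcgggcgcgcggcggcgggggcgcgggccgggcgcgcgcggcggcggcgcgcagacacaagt
The FOXA1 window held 1 forkhead match and 2 GC boxes, the KLF5 window held 2 GC boxes, and the RXRA window held 6, of which some overlap in the run GGGCGGGCGG. Of the windows not shown, that of KLF5 held neither a forkhead match nor a GC box, and that of RXRA held a GC box. Over all 35114 windows of this length, 6.09% held a forkhead match and 42.6% a GC box. The regulators had 21 windows in the table for 8 of the 10 genes, and 2 of these held a forkhead match, 1 at FOXA1 and 1 at GATA3, while 9 held a GC box. The letters AGGTCA, a unit of the repeat that PPARG and RXRA bind as a pair, were in 3 of the 21 windows, all of them at PPARG and 2 of them nearly the same stretch, beside 12.1% of all windows. AACCGGTT, the Grainyhead site, was in none of the 21 and in 0.117% of all windows. The GATA letters AGATAA were in 2 of the 21 and in 9.17% of all windows, and the E-box CACGTG was in 1 of the 21, at GATA3, and in 6.35% of all windows. A match is a description of the letters and not a site shown to be used in these cells.

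FOXA1 fell by 52.6% in oeRNF112 cells, which left its transcript at 0.474 times its vector level. This forkhead factor opens chromatin for nuclear receptors and for GATA factors. Its gene lies at chr14:37589552-37595249 on the minus strand (GRCh38.p14). The counts were 1416, 1644 and 1430 in vector and 845, 571 and 834 in oeRNF112. As normalized CPM, with library totals corrected by TMM factors, these were 35.8, 41.1 and 37.1 against 20.4, 13.9 and 19.7. The groups did not overlap, the highest oeRNF112 sample being well below the lowest vector sample, and the second oeRNF112 sample was the lowest of all 6. The log2 fold change was -1.08 (SE 0.144, 95% confidence interval -1.40 to -0.757, adjusted p = 0.00132, edgeR quasi-likelihood test). FOXA1 had the 107th largest fall among the 1178 genes that were lower, and 4.89% of all genes tested had a larger change in either direction. It was below vector in 3 of 3 oeRNF112 samples, a pattern shared by 17.9% of all genes tested. In RPKM, FOXA1 was higher than 76.0% of all genes in vector and than 65.4% in oeRNF112. Without the second oeRNF112 sample the log2 fold change was -0.91, and it stayed called.

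A gene on the opposite strand, TTC6, overlaps FOXA1 or lies within 1000 bases of it in GENCODE. It had 43, 48 and 43 counts in vector and 27, 23 and 35 in oeRNF112, with a log2 fold change of -0.74 (SE 0.27, adjusted p = 0.0865, edgeR). The kit that made the libraries keeps the strand, but the strand setting of the counting is not given in the sources used here. The part of shared reads in the FOXA1 result was not tested.

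RXRA, the partner that PPARG and other nuclear receptors need to bind DNA, was the most abundant regulator and was modestly lower in oeRNF112 cells. Its gene lies at chr9:134326455-134440585 on the plus strand. The normalized CPM was 145, 159 and 155 in vector and 128, 115 and 117 in oeRNF112, and the groups did not overlap. The log2 fold change was -0.35 (SE 0.0849, 95% confidence interval -0.54 to -0.16, adjusted p = 0.0202, edgeR), and the level in oeRNF112 was 0.785 times that in vector. The call was held under 6 of 15 alternatives. It was lost with library totals in place of TMM factors (adjusted p = 0.0703, edgeR), in the 3 limma fits on RPKM (adjusted p between 0.0631 and 0.0651) and when any of 4 samples, the first vector sample or any oeRNF112 sample, was left out (adjusted p between 0.0503 and 0.074, edgeR). The remaining loss was with the replicate number as a block (adjusted p = 0.158, edgeR). In RPKM the oeRNF112 samples still lay below the vector samples, at 18.1, 15.9 and 16.7 against 18.9, 21.4 and 20.2.

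KLF5, a zinc-finger factor of proliferating and differentiating epithelium, was the regulator that rose. Its gene lies at chr13:73054976-73077538 on the plus strand. The normalized CPM was 44.8, 42.0 and 40.1 in vector and 48.6, 53.8 and 60.1 in oeRNF112, so the groups did not overlap and the third oeRNF112 sample was the highest. The level in oeRNF112 was 1.28 times that in vector, with a log2 fold change of 0.36 (SE 0.102, 95% confidence interval 0.13 to 0.59, adjusted p = 0.0383, edgeR). The call was held under 9 of 15 alternatives and was lost when any sample other than the second vector sample was left out (adjusted p between 0.0531 and 0.149, edgeR) and with the replicate number as a block (adjusted p = 0.192, edgeR). Without the third oeRNF112 sample the log2 fold change was 0.28 (adjusted p = 0.149, edgeR).

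PPARG, the receptor at the head of the luminal programme, had a log2 fold change of 0.11 (SE 0.0861, 95% confidence interval -0.08 to 0.30, adjusted p = 0.403, edgeR). Its gene lies at chr3:12287368-12434344. The normalized CPM was 52.0, 54.1 and 58.7 in vector and 58.9, 60.5 and 58.5 in oeRNF112, and the groups overlapped. On RPKM, which divides by the library total alone, they did not, at 7.04, 7.56 and 7.94 against 8.62, 8.66 and 8.67. A rise of more than 0.30 or a fall of more than 0.08 on the log2 scale lay outside the interval, which holds for TMM scaling only. With library totals in place of TMM factors the log2 fold change was 0.20 (adjusted p = 0.121, edgeR).

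GATA3, the zinc-finger factor that specifies urothelial cells, sat at the edge of expression. Its gene lies at chr10:8045333-8075198. It had 173, 117 and 129 counts in vector and 153, 167 and 169 in oeRNF112, so the groups overlapped and the first vector sample was the highest of all. The log2 fold change was 0.14 (SE 0.181, 95% confidence interval -0.26 to 0.54, adjusted p = 0.616, edgeR). Without the first vector sample it was 0.33 and without the second 0.02, and it was not called in any alternative.

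ELF3, an ETS factor of differentiated epithelium, had 370, 339 and 360 counts in vector and 409, 342 and 407 in oeRNF112. The groups overlapped. Its log2 fold change was 0.03 (SE 0.121, 95% confidence interval -0.24 to 0.30, adjusted p = 0.874, edgeR), and the sign turned without the second vector sample (-0.0138) or the first oeRNF112 sample (-0.0139). Its gene lies at chr1:202010587-202017183. The antisense transcript ELF3-AS1 had 7, 10 and 10 counts against 14, 21 and 21 (log2 fold change 0.96, SE 0.389, adjusted p = 0.115, edgeR).

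**Figure D2:**
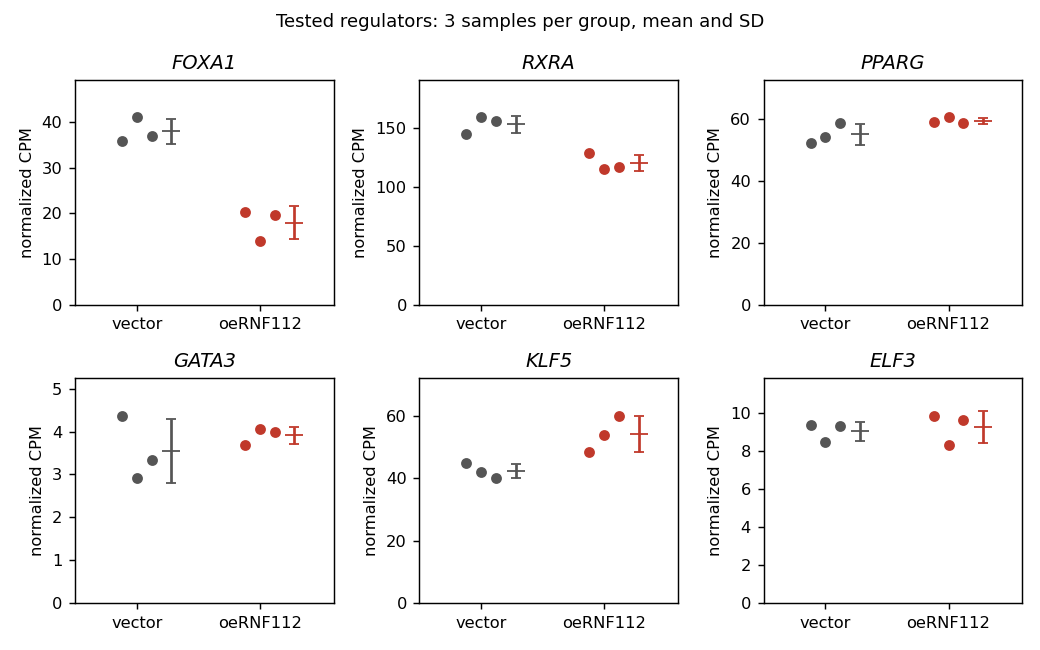
Normalized CPM (counts scaled to a common library total with TMM factors) of the 6 tested regulators, with 1 point per sample, a horizontal mark for the mean and bars for the SD (n = 3 per group); each panel starts at 0. The oeRNF112 points of FOXA1 (13.9 to 20.4) and RXRA (115 to 128) lie below all vector points, those of KLF5 (48.6 to 60.1) lie above, and PPARG, GATA3 and ELF3 overlap.

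**Figure D3:**
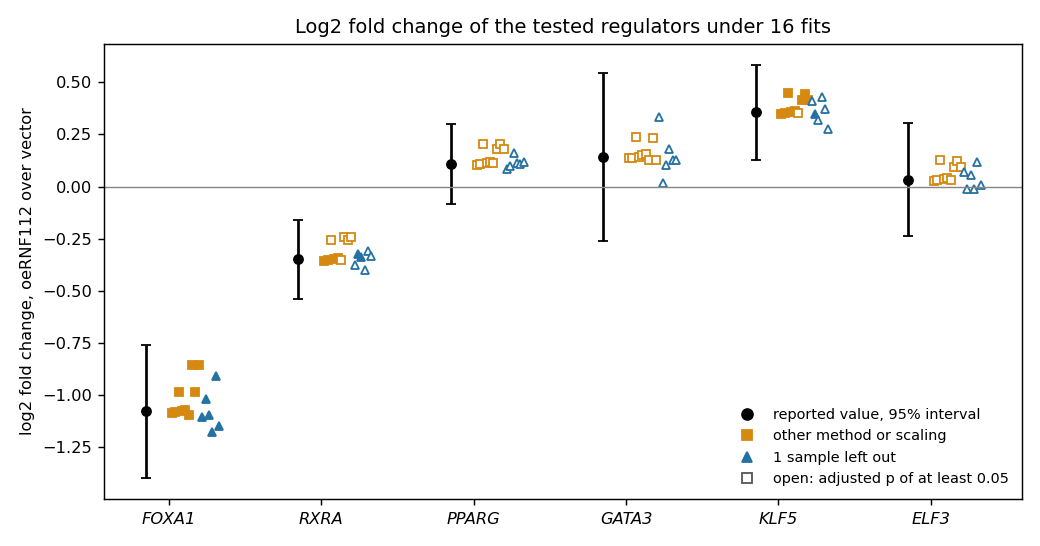
Log2 fold change of each tested regulator, oeRNF112 over vector, with the reported value and its 95% confidence interval in black, other methods or scalings as squares and fits with 1 sample left out as triangles; open symbols have an adjusted p of at least 0.05. FOXA1 keeps filled symbols in all 15 alternatives, between -1.18 and -0.86, while RXRA keeps 6 and KLF5 keeps 9.

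The genes whose normalized log2 CPM ran most like each called regulator over the 6 samples were PTP4A3, LOC105372338 and INAVA for FOXA1 (Pearson r of 0.998, 0.997 and 0.997). They were ODF2L, ADM2 and NKIRAS1 for KLF5 (0.997, 0.996 and 0.993) and CRTC1, WDR6 and MYO7A for RXRA (0.999, 0.996 and 0.994). The 6 samples form 2 groups, so a gene that differs between them tends to score high. PTP4A3 (log2 fold change -0.27, adjusted p = 0.478, edgeR) and ODF2L (0.32, adjusted p = 0.0546, edgeR) did not pass, and the other genes named in this paragraph did. An r over 0.95 was found for 277, 146 and 266 genes with FOXA1, KLF5 and RXRA.

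The closest relatives of the regulators were read next. Here and for the lists that follow, the values to read beside are 18.1% of all genes tested called and a median log2 fold change of 0.0027. Of 20 relatives, 13 were expressed and 16 were tested, and 3 were higher, 4 were lower and 9 did not pass, with a median log2 fold change of 0.23. GRHL1 was the Grainyhead factor that these cells did express, at low level. It had 81, 79 and 67 counts in vector and 164, 149 and 195 in oeRNF112, and the groups did not overlap. Its log2 fold change was 1.08 (SE 0.177, adjusted p = 0.0034, edgeR), from 0.48 to 1.08 RPKM. GATA6 rose (log2 fold change 0.44, adjusted p = 0.0159, edgeR), and GATA2, at 0.38, did not pass (adjusted p = 0.0501, edgeR). Both were more abundant than GATA3, at 4.45 RPKM for GATA6 and 5.22 for GATA2 in vector. Across the fits without a sample, GRHL1 stayed called in 6 of 6 fits and GATA6 in 4, at 0.37 to 0.50, and GATA2 was called in 2.

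Of the nuclear receptors related to RXRA and PPARG, RXRB fell like RXRA (log2 fold change -0.44, adjusted p = 0.0211, edgeR) and PPARD rose (0.29, adjusted p = 0.0407, edgeR). RXRG, the third retinoid X receptor, had at most 1 count in a sample. TP73, a relative of the near silent TP63, was expressed at 4.81 RPKM in vector and fell, with a log2 fold change of -0.41 (adjusted p = 0.0118, edgeR). EHF, an ETS factor of the same subfamily as ELF3, was low and fell from 74, 116 and 58 counts to 31, 25 and 53 (log2 fold change -1.26, adjusted p = 0.0308, edgeR). OVOL2, the relative of OVOL1, had 10, 4 and 11 counts in vector and 19, 18 and 27 in oeRNF112, and did not pass (adjusted p = 0.0739, edgeR). FOXA3 had at most 1 count in a sample, so FOXA1 was the most abundant of the FOXA genes, with FOXA2 at 0.685 RPKM in vector. When samples were dropped one at a time, TP73 stayed called in 4 of 6 fits (-0.43 to -0.39), RXRB and EHF in 2 and PPARD in 0, with log2 fold changes between -0.52 and -0.38 for RXRB, -1.62 and -0.95 for EHF and 0.26 and 0.32 for PPARD.

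Other transcription factors of urothelial and squamous epithelium moved both ways. Of 22 listed, 20 had a row, 14 were expressed and 16 were tested, and 3 were higher and 3 were lower. Their median log2 fold change was 0.10, and 0.06 without the second vector sample. CEBPB, a basic leucine zipper factor, was the most abundant, and rose from 49.8 to 80.8 RPKM (log2 fold change 0.60, SE 0.0976, adjusted p = 0.00321, edgeR). The T-box repressors TBX3 and TBX2 rose by 0.65 and 0.48 on the log2 scale (adjusted p = 0.00363 and 0.0301, edgeR). IRF1, a factor of the interferon response, fell from 2786, 2598 and 2631 counts to 1644, 1623 and 1670, a tight pair of groups with no overlap (log2 fold change -0.78, SE 0.083, adjusted p = 0.000411, edgeR). BHLHE41 and TFAP2C fell by 0.66 and 0.33 (adjusted p = 0.00524 and 0.0309, edgeR). SPDEF, a factor of luminal epithelium, was near silent. When each sample was dropped in turn, CEBPB, TBX3, IRF1 and BHLHE41 stayed called in 6 of 6 fits and TBX2 and TFAP2C in 1, at 0.42 to 0.56 and -0.35 to -0.27.

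The coregulators that nuclear receptors recruit mostly did not pass the test. Of 16, 14 were expressed and all were tested, and 2 were called, which is 12.5% beside 18.1% over all genes. Their median log2 fold change was -0.002 (-0.10 to 0.14 with a sample left out). The 2 were PPARGC1A and PPARGC1B, coactivators of oxidative metabolism, and both were low. PPARGC1A had 28, 57 and 21 counts in vector and 85, 81 and 130 in oeRNF112 (log2 fold change 1.40, SE 0.352, adjusted p = 0.0231, edgeR), and PPARGC1B had a log2 fold change of 0.97 (adjusted p = 0.03, edgeR). With each sample left out in turn, each of these calls was held in 2 of 6 fits, with log2 fold changes of 1.15 to 1.91 and 0.78 to 1.18. The deacetylase HDAC3, the most abundant of the list at 48.1 RPKM in vector, did not pass.

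Target genes of PPARG and RXRA were higher or did not pass. Of 25 listed, 22 had a row and 15 were tested, of which 5 were higher, none was lower and 10 did not pass, with a median log2 fold change of 0.25. The summed RPKM of the list was 113, 112 and 111 in vector and 189, 204 and 173 in oeRNF112. Most of the difference lay in 2 genes, PLIN2 (21.2 to 51.1 RPKM) and ANGPTL4 (4.51 to 29.5 RPKM). The 5 that rose were ANGPTL4, a secreted inhibitor of lipoprotein lipase (log2 fold change 2.62), CPT1A, which controls the entry of fatty acids into mitochondria (1.43), PLIN2, a coat protein of lipid droplets (1.18), PDK4, a brake on glucose oxidation (1.11), and RBP4, the carrier of retinol (0.46). Their adjusted p-values lay between 1.54e-05 and 0.0266 (edgeR). These genes are also targets of the other PPAR receptors, and several were known to change in these samples when the list was written, so the list is not independent evidence of its direction. In the fits that each left out a sample, ANGPTL4, CPT1A and PLIN2 stayed called in 6 of 6 fits, PDK4 in 5 (0.96 to 1.35) and RBP4 in 2 (0.39 to 0.55). CD36, PLIN1 and LPL, classical PPARG targets of fat cells, were near silent and not tested. FABP4, another, did not pass and had 20, 13 and 20 counts in vector and 24, 25 and 27 in oeRNF112. Of the receptors themselves, RXRA was lower and PPARG did not pass.

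Markers of luminal urothelium were incomplete in T24 cells. The simple epithelial keratins KRT18, KRT8, KRT7 and KRT19 were abundant, at 744, 604, 521 and 118 RPKM in vector. The uroplakins, which form the plaques of the apical membrane, were low or near silent: UPK3A had at most 1 count in a sample, UPK2 at most 7 and UPK1A at most 20, and KRT20, the keratin of umbrella cells, had at most 2. Of 26 luminal markers listed, 22 had a row and 14 were tested, and 3 were higher and 3 were lower. Their median log2 fold change of -0.10 turned positive, to 0.07, without the third oeRNF112 sample and was -0.25 without the first. KRT18 and KRT7 fell by 0.51 and 0.48 on the log2 scale (adjusted p = 0.013 and 0.0226, edgeR), and KRT8 had a log2 fold change of -0.33 and did not pass (adjusted p = 0.0759, edgeR). ERBB2, an amplified receptor of some luminal tumours, fell by 0.31 (adjusted p = 0.0488, edgeR). The receptors FGFR3 and ERBB3 rose, by 1.38 and 0.46 (adjusted p = 0.00713 and 0.0375, edgeR), FGFR3 from a low 0.174 RPKM. DHRS2, a reductase, rose most in this list, with a log2 fold change of 3.66 (SE 0.156, adjusted p = 2.12e-06, edgeR). With each sample left out in turn, DHRS2 and FGFR3 stayed called in 6 of 6 fits, KRT18 in 4 (-0.59 to -0.41), KRT7 in 2 (-0.57 to -0.36), ERBB3 in 2 (0.37 to 0.57) and ERBB2 in 0 (-0.35 to -0.23).

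Markers of basal urothelium were incomplete as well. KRT14 and KRT6A had at most 1 count in a sample, and TP63 was near silent, while CD44 stood at 174 RPKM in vector and LAMB3 at 153. Of 23 listed, 21 had a row and 15 were tested, of which 7 were higher, 1 was lower and 7 did not pass. Their median log2 fold change was 0.40 (0.28 to 0.47 with a sample left out). The laminin subunit LAMB3 rose by 0.50 on the log2 scale (adjusted p = 0.00446, edgeR), and so did COL17A1, a hemidesmosome collagen, by 0.41 (adjusted p = 0.0106, edgeR). PI3, the elastase inhibitor elafin, rose from 21, 23 and 16 counts to 125, 159 and 110, and NGFR, a receptor of basal progenitors, rose by 2.39 (adjusted p = 0.000291 and 0.000664, edgeR). KRT17 and CDH3 rose from below 0.5 RPKM, by 1.09 and 1.22 (adjusted p = 0.0271 and 0.0158, edgeR). With each sample left out in turn, ITGB4, PI3, NGFR and LAMB3 stayed called in 6 of 6 fits, COL17A1 and CDH3 in 4 (0.36 to 0.45 and 1.03 to 1.43) and KRT17 in 2 (0.93 to 1.22). ITGB4, the integrin that anchors basal cells at hemidesmosomes, went the other way, from 1185, 1324 and 999 counts to 490, 435 and 431 (log2 fold change -1.45, SE 0.12, adjusted p = 0.000135, edgeR).

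Junction and barrier genes that GRHL2, ELF3 and the OVOL factors act on also lacked their defining member. CDH1, the gene of E-cadherin, had 0 counts in each vector sample and 1, 1 and 0 in oeRNF112, and RAB25 was near silent. Of 29 listed, 15 were expressed and 21 were tested, and 5 were higher, 2 were lower and 14 did not pass, with a median log2 fold change of 0.31 that was 0.15 without the first vector sample. CDS1, a lipid enzyme, CGN, the tight junction protein cingulin, EPCAM, an adhesion molecule, SPINT1, a protease inhibitor, and ESRP1, an epithelial splicing factor, were higher, with log2 fold changes of 1.39, 1.17, 0.84, 0.71 and 0.83. Their adjusted p-values were 0.00145, 0.00223, 0.0208, 0.0021 and 0.0438 (edgeR). Across the fits with a sample left out, CDS1, CGN and SPINT1 stayed called in 6 of 6 fits, EPCAM in 3 (0.67 to 0.97) and ESRP1 in 1 (0.68 to 1.12). CGN had 127, 192 and 171 counts in vector and 398, 330 and 441 in oeRNF112, and EPCAM had 94, 66 and 99 against 143, 183 and 165, with no overlap in either. AP1M2, an adaptor of epithelial sorting, fell by 0.45 (adjusted p = 0.0372, edgeR; 2 of 6 fits with a sample left out, -0.54 to -0.35).

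Several mesenchymal markers were abundant in these cells. VIM, the gene of vimentin, stood at 1961 RPKM in vector and 1814 in oeRNF112, and ZEB1, a repressor of epithelial genes, at 3.51 and 4.57. Of 14 listed, 9 were expressed and 10 were tested, and 2 were higher and 2 were lower, the median being -0.001 (-0.07 to 0.01 with a sample left out). The repressor SNAI2 rose by 0.54 on the log2 scale (adjusted p = 0.00291, edgeR). SNAI1, also a repressor, stood at 0.193 RPKM in vector, with 10, 15 and 15 counts against 25, 57 and 44 in oeRNF112. Its log2 fold change was 1.57 (adjusted p = 0.0224, edgeR). SNAI1 passed the filter on low counts only through the oeRNF112 samples, so its call is not read as a result, though it is counted among the 2 higher. SPARC, a matrix protein, and CDH2, the gene of N-cadherin, fell by 0.83 and 0.44 (adjusted p = 0.0003 and 0.0252, edgeR). With each sample left out in turn, SNAI2 and SPARC stayed called in 6 of 6 fits and SNAI1 and CDH2 in 3, at 1.28 to 1.83 and -0.52 to -0.33.

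Markers of other cell types were checked because bulk RNA mixes all cells in a dish, and fewer cells of a type and less RNA per cell cannot be told apart. Of 14 leukocyte markers 11 had a row, 2 were expressed, 4 were low and 5 were near silent, and of 5 tested 1 was lower. The median of these 5 was a log2 fold change of -0.58 (-0.89 to -0.33 with a sample left out). Their summed RPKM was 5.65, 5.97 and 4.62 in vector and 6.25, 3.24 and 3.44 in oeRNF112. LAPTM5 was the most abundant, at 2.85 RPKM in vector and 1.65 in oeRNF112 (log2 fold change -0.88, adjusted p = 0.0308, edgeR), a call held in 2 of 6 fits with a sample left out (-1.24 to -0.69). PTPRC, the gene of CD45, had 54, 37 and 40 counts in vector and 33, 24 and 26 in oeRNF112 (adjusted p = 0.104, edgeR), and CD3E had 0, 0 and 4 counts in oeRNF112 and 0 in each vector sample. LYZ had 97 counts in the first oeRNF112 sample and at most 8 in the others. Of 14 fibroblast and endothelial markers 13 had a row and 10 were near silent, with a summed RPKM of 1.72, 2.23 and 2.14 in vector and 2.47, 2.49 and 2.60 in oeRNF112 and a median log2 fold change of 0.41 over 5 tested (0.27 to 0.67 with a sample left out). COL1A1 was the most abundant, at 1.34 and 1.72 RPKM, and PDGFRA, near silent, was the one called, with 1, 3 and 8 counts in vector and 19, 29 and 19 in oeRNF112. It passed the filter on low counts only through the oeRNF112 samples, so its call is not read as a result. Their part in the changes of FOXA1, RXRA and KLF5 was not tested.

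The scaling moved alongside the groups. TMM factors were 0.957 to 0.988 in vector and 1.01 to 1.05 in oeRNF112, while the top 100 genes by count took 20.6% to 22.9% of the reads in vector and 18% to 19.6% in oeRNF112. Scaling by library totals instead moved the median over all genes tested to a log2 fold change of 0.0962, with FOXA1 at -0.98, RXRA at -0.26 and KLF5 at 0.45. STPG1, a gene next to GRHL3 on the opposite strand, rose from 453, 448 and 452 counts to 716, 797 and 741 (log2 fold change 0.66, adjusted p = 0.00269, edgeR), while GRHL3 stayed at or under 6 counts.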

How the data were processed

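Libraries of 6 T24 samples (3 vector, 3 oeRNF112) were made with a stranded mRNA kit. As deposited by the authors, one table held raw read counts and the other RPKM. For 20637 of 20637 genes with a count in at least 2 samples, dividing the count by its column sum and by one length per gene gave the RPKM (tolerance 0.0001). Submitters' processing notes name Trimmomatic 0.36, featureCounts, Subread 1.5.1 and GRCh38; the aligner, annotation and strand setting are not given in the sources used here.

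Counts were tested with edgeR 4.0.16 in R 4.3.3 (filterByExpr, TMM factors, quasi-likelihood test, Benjamini-Hochberg adjustment over 14467 genes, threshold 0.05). SE is the log2 fold change over the square root of F. Alternatives were DESeq2 1.42.0, DESeq2 size factors, library totals, no filter, at least 10 counts in every sample, a replicate block, limma 3.58.1 on log2(RPKM + 1) or log2(RPKM + 0.1), and each sample left out. The scripts were tested on simulated data.

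The regulators and gene lists were chosen with earlier results of these data known. By rule the text names RNF112, the regulators, the 5 genes with the smallest p and the 3 with the highest RPKM of each list, and the 3 genes closest to each called regulator. Genes named beyond this rule (PPARD, EHF, GATA2, FOXA2, TFAP2C, ERBB2, COL17A1, KRT17, KRT19, ZEB1, CDH3, ESRP1, AP1M2, overlapping and neighbouring genes, and those named as low or near silent) were chosen after their values were seen. Listed genes without a row, KRT5 and UPK1B among them, are not analysed here. Results of some genes that the rule or the lists hold are not reported here, although the counts of each list include them.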

Additional observations from a re-analysis of the deposited data

How the results depend on the processing

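FOXA1 kept its direction and its call in all 15 alternatives, with a log2 fold change between -1.18 and -0.86 and an adjusted p of at most 0.0103. KLF5 stayed called in 9 (0.28 to 0.45, adjusted p 0.0174 to 0.192) and RXRA in 6 (-0.40 to -0.24, adjusted p 0.00333 to 0.158). PPARG (0.09 to 0.20), GATA3 (0.02 to 0.33) and ELF3 (-0.0139 to 0.118 with a sample left out) were called in none, and ELF3 turned to -0.0138 without the second vector sample and to -0.0139 without the first oeRNF112 sample. The 6 regulators held as expressed stayed 6 with a minimum of 0.5 RPKM or 1 CPM. Of 776 values of 53 other named genes under the alternatives, 620 kept their side of the threshold, 139 lost it, 17 gained it and 0 turned sign.

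With the lower calls alone, library totals gave 659 in all genes and 1 regulator, in place of 1178 and 2, and 2020 genes higher. The limma fits gave 669 (pseudocount 1), 682 (pseudocount 0.1) and 603 (mean RPKM of at least 1) lower genes, 1 lower regulator each, and 9, 9 and 10 lower genes of the related lists in place of 16. With 1 sample left out, the calls over all genes ran from 1061 to 3387 (702 to 1841 higher, 359 to 1546 lower), the regulators called from 1 to 3 (0 to 1 higher, 1 to 2 lower) and the genes of the lists from 23 to 52, against 47 (18 to 35 higher, 5 to 17 lower). The lowest counts over all genes came without the first vector sample and the highest without the second. The cause was not tested.

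When the replicate number entered the model as a replicate block, 876 genes were called (618 higher, 258 lower), with 1 regulator (0 higher, 1 lower, FOXA1; adjusted p = 0.192 for KLF5 and 0.158 for RXRA) and 24 list genes (18 higher, 6 lower). Deviations of same-numbered samples from their group means correlated at -0.116, -0.363 and -0.296, so the numbers give no sign of a pairing. GRHL2, GRHL3, TP63 and OVOL1 did not pass the filter on low counts, and without it none of the 4 was called. GATA3 had the widest interval of the 6, and the cause was not tested.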
